A study of Homo sapiens with 96 samples.

Results

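Glycolysis splits glucose into pyruvate and lactate, and 10 genes of that route were followed here through every expression table of a study of hTERT-RPE1 cells: SLC2A1, HK1, HK2, PFKP, PFKFB3, PFKFB4, ALDOA, PGK1, ENO1 and LDHA. They were taken by symbol, and each was found once in all 10 tables, which list between 14746 and 22295 genes. hTERT-RPE1 is an established human cell line from the retinal pigment epithelium that divides without limit through added telomerase. Of the 96 samples of the series, 91 had expression columns and 5 chromatin samples were not analysed here. Nascent RNA (newly made transcripts) and the matching input RNA were each measured in whole cells and in nuclei, in asynchronous cells and in 5 windows labelled T0-2, T2-4, T4-6, T6-8 and T8-10, with 2 libraries per group. In addition, cells transfected with control LNA GapmeRs, or with GapmeRs against the long non-coding RNAs LINC00704, LUCAT1 or MIAT, were measured at points S0, S2, S4 and S6 (2 libraries per group) and asynchronously (2 control and 3 knockdown libraries). A GapmeR is an antisense oligonucleotide that leads RNase H to cut its target, given here at 130 to 150 pmol. Cells were synchronised with 400 uM mimosine for 22 h, and the labels name no unit for the window and point numbers. All groups share the parental line without any genetic change named in the labels, and each knockdown is a transient transfection. The labels do not say whether replicates are separate cultures. The p-values therefore rest on the spread among the libraries at hand, and that spread may be technical.

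Mimosine is a plant amino acid that chelates iron and stops cells before DNA synthesis. The prolyl hydroxylases that mark HIF1A and EPAS1 for degradation need iron, so iron chelation, like low oxygen, stabilises these factors. HIF dimers bind short sites with the core ACGTG or GCGTG, and glucose transporters and most glycolytic enzymes are textbook HIF targets. Among the 10, SLC2A1 carries glucose into the cell, and HK1 and HK2 phosphorylate it. PFKP is the platelet-type phosphofructokinase, the committing step, and PFKFB3 and PFKFB4 make and break its activator fructose 2,6-bisphosphate. ALDOA splits the phosphorylated sugar, PGK1 and ENO1 act on the products further down, with PGK1 forming ATP, and LDHA turns pyruvate into lactate.

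The promoter windows of the 4 members with the widest changes after mimosine are shown because they differ in the number of HIF core letters they hold. They run from 250 bases before to 50 bases after the annotated start, as RefSeq gives them on GRCh38.p14, 5′ to 3′ on the gene's strand, with the motif ACGTG or the motif GCGTG, read on either strand, in capitals. PGK1 lies at chrX:78103998-78104297 (plus strand), LDHA at chr11:18394313-18394612 (plus strand), HK2 at chr2:74833877-74834176 (plus strand) and PFKFB4 at chr3:48556754-48557053 (minus strand). The window of PFKFB4 belongs to a start inside its RefSeq gene span (48517684 to 48563136) and not at its outer end.
PGK1: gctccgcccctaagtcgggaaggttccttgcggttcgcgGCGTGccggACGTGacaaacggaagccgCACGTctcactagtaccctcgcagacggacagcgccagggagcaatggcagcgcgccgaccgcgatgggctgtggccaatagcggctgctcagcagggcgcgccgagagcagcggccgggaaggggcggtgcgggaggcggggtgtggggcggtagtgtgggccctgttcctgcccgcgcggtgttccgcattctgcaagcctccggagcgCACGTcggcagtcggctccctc
LDHA: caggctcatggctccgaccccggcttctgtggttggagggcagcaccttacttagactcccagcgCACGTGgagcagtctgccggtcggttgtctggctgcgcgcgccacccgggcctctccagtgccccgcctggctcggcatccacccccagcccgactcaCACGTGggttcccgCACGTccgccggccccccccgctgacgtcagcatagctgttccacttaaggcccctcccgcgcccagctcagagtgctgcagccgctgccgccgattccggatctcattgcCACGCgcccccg
HK2: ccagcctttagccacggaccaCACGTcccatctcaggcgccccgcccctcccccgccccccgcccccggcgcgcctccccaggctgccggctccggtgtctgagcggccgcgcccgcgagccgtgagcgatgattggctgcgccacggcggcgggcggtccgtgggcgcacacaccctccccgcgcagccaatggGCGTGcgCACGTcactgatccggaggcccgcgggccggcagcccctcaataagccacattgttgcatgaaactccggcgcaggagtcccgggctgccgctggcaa
PFKFB4: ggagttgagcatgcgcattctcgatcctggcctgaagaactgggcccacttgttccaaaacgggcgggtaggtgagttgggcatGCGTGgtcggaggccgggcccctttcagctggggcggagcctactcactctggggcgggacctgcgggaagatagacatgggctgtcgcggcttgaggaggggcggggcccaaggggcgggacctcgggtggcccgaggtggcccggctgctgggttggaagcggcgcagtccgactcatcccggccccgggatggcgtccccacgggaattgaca
PGK1 held 3 ACGTG and 1 GCGTG, LDHA 5 ACGTG and 1 GCGTG, HK2 2 ACGTG and 1 GCGTG, and PFKFB4 a single GCGTG. In LDHA, 4 of the 5 ACGTG matches lie in 2 copies of CACGTG, which reads the same on both strands and so counts on each. CACGTG is the E-box bound by MYC and other basic helix-loop-helix factors. Searched on both strands in the window nearest the annotated start of each gene, ACGTG was found in 4 of the 10 members and GCGTG in 7, against 21.4% and 36.5% of 35116 promoter windows of the same length in the RefSeq table. Either core was found in the nearest window of 8 members (48.4% of all windows), with none in that of HK1 or PFKP, and CACGTG in 1 (7.26%). The shares count every annotated window of a gene, the members only their nearest one. They were not matched for base content or expression, so they are a rough background. Several members have further annotated starts, 24 windows in all. HK2 has 4 ACGTG and 2 GCGTG in its second, HK1 has 1 GCGTG in each of 2 further windows, and PFKP has 1 ACGTG in one and 3 GCGTG in another. A match is a run of letters and no proof of a bound site, and which start these cells used was not measured.

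All 10 members passed the filter on low values in every table, because all were well covered: between 166 reads (PFKFB4 in a whole-cell nascent asynchronous library) and 111373 reads stood behind a single value. Libraries held 6.39 to 50.5 M reads, recovered from the steps between values. Levels are in RPKM (read density along a gene, scaled to a library size), where the kilobases are those of the whole gene, introns included. In the asynchronous knockdown comparisons that size was not the read count, and a larger size lowers all values of a library. It lay below the reads in the controls and above them after LUCAT1 and MIAT knockdown. In the LUCAT1 comparison, control replicate 1 had 42.2 M reads and a size of 38.6 M, and knockdown replicate 3 had 35.4 and 41.2 M. After LINC00704 knockdown it lay above in replicates 1 and 2 and below in replicate 3. The length in the files is 64.1 kb for PGK1 against 25.05 kb in RefSeq, 17.4 against 6.14 kb for ALDOA and 90.6 against 182 kb for PFKFB3, so levels of these 3 are not comparable with other genes. Of 14 pigment epithelium markers, KRT18, KRT8, OTX2 and MITF reached 0.5 RPKM in at least 1 library of every table, while RPE65, which defines the mature tissue, reached at most 0.22 RPKM and was not listed in 7 tables. Of 6 fibroblast or mesenchymal markers, 3 reached that level in each table, and the sum of the 6 was the higher one in most tables. In nuclear input RNA it was 103 to 239 RPKM, against 10.6 to 30.1 for the pigment epithelium markers. In whole-cell input RNA it was 148 to 445 against 11.8 to 32.0. The 2 sums overlapped in the asynchronous LINC00704 comparison, at 61.6 to 129 against 66.2 to 85.1. They also did in that of LUCAT1, at 55.0 to 116 against 19.2 to 88.3. Among 12 markers of blood, endothelium and other cell types, HBB reached 72.4 RPKM in 1 library, T0-2 replicate 2 of whole-cell nascent RNA, and 3.35 RPKM in 1 library of nuclear nascent RNA, while no other of these markers passed 0.43 RPKM in a table that lists it. HBB's part in the results was not tested. PGK1, LDHA, ENO1 and ALDOA have near-identical pseudogene copies in the genome, and the strand of the fraction libraries is not stated, so reads shared with such copies or with antisense transcripts make their levels uncertain.

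The title of the study speaks of S-phase non-coding RNAs, and the first comparison sets the 5 windows after mimosine against asynchronous cells. The treatment text naming mimosine is the same on every sample, and the asynchronous libraries are taken as untreated from their label alone. All fitted differences are log2(RPKM + 0.25) with the standard error, from limma, and adjusted p-values are Benjamini-Hochberg values over all genes of a table, called under 0.05. In nuclear input RNA, PGK1 and LDHA rose, and 2 of 10 members were called higher against 1.96% of the 9633 genes tested (2.61% were called lower). In nuclear nascent RNA, PGK1 and PFKFB4 rose, again 2 of 10, against 1.95% of 9784 genes (2.54% lower). No member was called lower in any of the 4 kinds of RNA. In whole cells no member was called (background 0.248% higher in nascent and 0.0305% in input RNA), with 1387 of 10096 and 865 of 9825 genes at an unadjusted p under 0.05. Every window library came from synchronised cells, so S phase and the drug cannot be told apart in this comparison. These are bulk samples, in which fewer cells making a transcript and less of it per cell cannot be told apart.

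PGK1 stood out in each kind of RNA. In nuclear input RNA it was at 3.72 and 3.73 RPKM in the 2 asynchronous libraries, 14.7 and 14.5 at T0-2, 11.9 and 12.3 at T2-4, 16.9 and 14.8 at T4-6, 12.3 and 10.96 at T6-8 and 14.2 and 9.83 at T8-10. All 10 window libraries were above both asynchronous ones, and no window was back at the asynchronous level. The difference was 1.75 ± 0.17 (10 against 2 libraries; limma adjusted p = 0.0044). In nuclear nascent RNA it rose from 3.895 and 3.33 RPKM to 12.5 and 19.3 at T0-2 and was 9.502 and 9.99 at T8-10, a difference over the windows of 1.58 ± 0.26 (limma adjusted p = 0.015). The windows again did not overlap the asynchronous libraries. Without either asynchronous library PGK1 lost its call in both kinds of nuclear RNA, at limma adjusted p = 0.071 and 0.058 without replicate 1 and 2 in input, and 0.15 and 0.19 in nascent RNA. In whole-cell nascent RNA the asynchronous values were 5.59 and 10.3 RPKM and the windows ran from 16.7 to 30.7, a difference of 1.56 ± 0.30 (limma adjusted p = 0.058). In whole-cell input RNA the asynchronous values were 4.19 and 4.61 RPKM, replicate 1 of the windows held 30.6 to 42.0 and replicate 2 held 8.20 to 20.5, and the difference of 2.27 ± 0.69 had an adjusted p of 0.33 by limma.

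LDHA followed PGK1 in the nuclear input RNA, from 25.5 and 19.7 RPKM in asynchronous cells to 82.4 and 65.7 at T0-2, 56.4 and 50.6 at T2-4, 84.04 and 48.6 at T4-6, 49.3 and 36.6 at T6-8 and 50.7 and 30.4 at T8-10. Its lowest window library still lay above both asynchronous ones. The difference was 1.23 ± 0.28 (limma adjusted p = 0.046), and it lost the call in 11 of 12 fits without 1 library (adjusted p up to 0.35, without asynchronous replicate 2). In whole-cell nascent RNA LDHA was 55.7 and 56.6 RPKM in asynchronous cells and between 78.1 and 185 in the windows, 1.20 ± 0.29 (limma adjusted p = 0.11). The whole-cell input libraries split by replicate number: replicate 1 went from 239.5 RPKM at T0-2 to 143 at T8-10, and replicate 2 from 103 through 25.1 at T6-8 to 44.6, against 38.4 and 38.6 in asynchronous cells. Within replicate number 1 the mean window difference was 2.35 on the log2 scale and within number 2 it was 0.28, so the mean rise of LDHA over the windows there rests mainly on replicate 1. Replicate 2 was above its asynchronous library at T0-2, T2-4 and T8-10 (103, 57.6 and 44.6 against 38.6 RPKM). It was below that library at T4-6 and T6-8 (34.4 and 25.1).

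PFKFB4, a paralog of PFKFB3, had the widest change of mean level from asynchronous cells to the first window in 3 of the 4 kinds of RNA, while in whole-cell nascent RNA PGK1, HK2 and LDHA changed more (3.56, 3.08 and 2.93 times against 2.797). In nuclear nascent RNA it was at 0.5297 and 0.458 RPKM in asynchronous cells, 2.97 and 3.04 at T0-2, 1.57 and 1.103 at T2-4, 1.18 and 1.23 at T4-6, 1.24 and 1.26 at T6-8 and 0.989 and 2.15 at T8-10. The window libraries all lay above the asynchronous ones, by 1.28 ± 0.22 (limma adjusted p = 0.017; 0.16 and 0.19 without asynchronous replicate 1 and 2). At T0-2 its mean was 6.09 times the asynchronous mean in nuclear nascent, 7.29 times in nuclear input and 9.28 times in whole-cell input RNA. In whole-cell nascent RNA the 2 asynchronous libraries disagreed, at 0.541 and 2.84 RPKM, and the windows overlapped them, with 3.99 and 5.46 at T0-2 and 1.001 and 0.972 at T8-10. The second asynchronous library was also the higher one for HK2 (1.51 and 3.01 RPKM), PFKFB3 (0.694 and 1.97) and PGK1 (5.59 and 10.3) and the lower one for ENO1 (186 and 119.9).

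**Figure D1:**
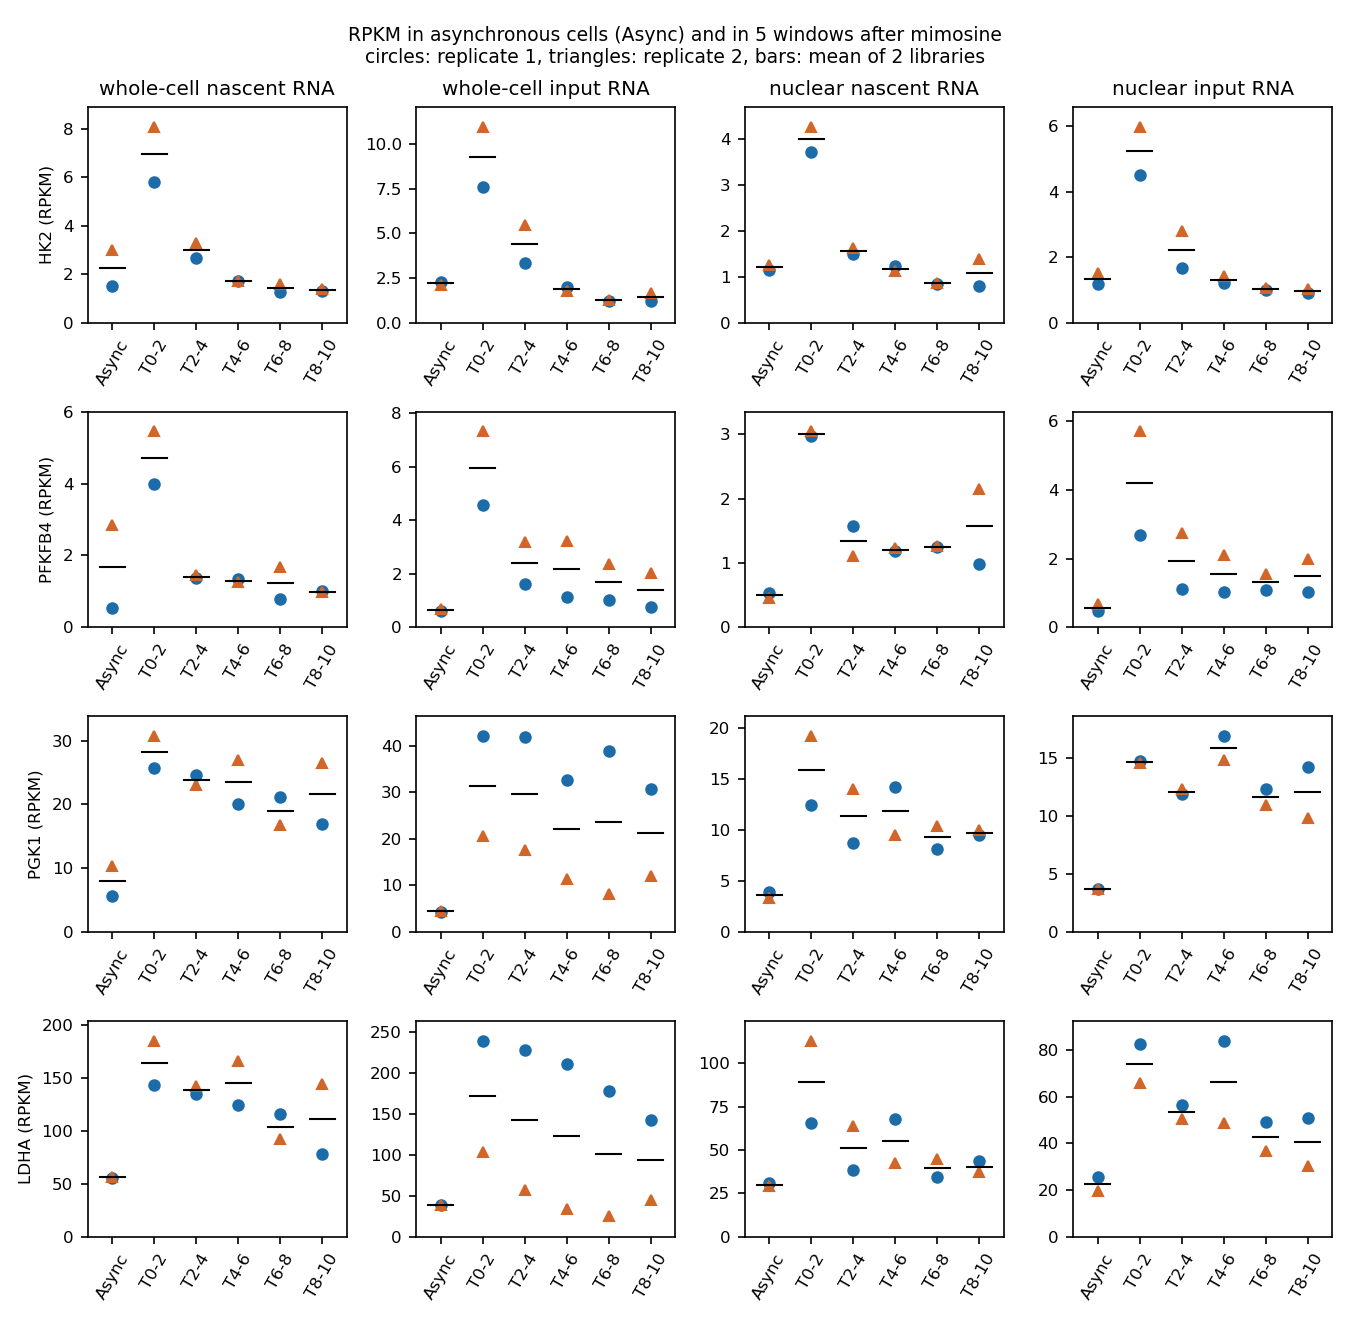
RPKM (vertical axis, linear from 0, own range per panel) of HK2, PFKFB4, PGK1 and LDHA in asynchronous cells (Async) and 5 windows after mimosine, in 4 kinds of RNA. Points are single libraries (circles replicate 1, triangles replicate 2) and bars the mean of 2; HK2 and PFKFB4 are highest at T0-2 in each panel, PGK1 stays above the asynchronous libraries in all windows, and the replicates of PGK1 and LDHA separate in whole-cell input RNA.

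The other 6 members gave smaller differences. ALDOA was at 18.97 and 24.1 RPKM in asynchronous nuclear input RNA and between 30.4 and 72.1 in the windows, 1.11 ± 0.33 (limma adjusted p = 0.11), and no window library overlapped the asynchronous ones in any of the 4 kinds of RNA. HK1 and PFKP differed by 0.53 ± 0.23 and 0.53 ± 0.26 and PFKFB3 by 0.73 ± 0.38 in nuclear input RNA, with adjusted p from 0.26 to 0.35 by limma. HK2 averaged over the windows differed by 0.34 ± 0.19, with high early and low late windows. SLC2A1 and ENO1 had among the smallest differences, in nuclear nascent RNA 0.17 ± 0.33 (95% interval -0.57 to 0.92) and 0.14 ± 0.34 (-0.62 to 0.90), and both intervals allow a change of either sign. The median over the 10 members was 0.63 in nuclear input, 0.43 in nuclear nascent, 0.40 in whole-cell nascent and 0.47 in whole-cell input RNA, beside 0.0040, -0.012, 0.054 and -0.078 over all genes tested. All 10 window libraries lay above both asynchronous ones for 5 members in nuclear input (HK1, PFKFB4, ALDOA, PGK1 and LDHA), against 6.65% of genes, and for 5 in nuclear nascent RNA (PFKFB3 in place of HK1), against 5.37%. The same held for ALDOA, PGK1 and LDHA in whole-cell nascent RNA (5.81% of genes) and for PFKFB4, ALDOA and PGK1 in whole-cell input RNA (4.43%).

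Same-numbered libraries of nuclear input RNA deviated together from their group means (all 15 pairs of groups, correlation 0.63 to 0.86 across genes), and a fit blocked on replicate called 8 of the 10 members higher, against 16.4% of genes in the same fit. With the block, limma gave adjusted p = 6.8e-05 for PGK1, 4.3e-04 for PFKFB4, 5.3e-04 for LDHA and 8.7e-04 for ALDOA. PFKFB3, PFKP, HK1 and HK2 followed at 0.0016, 0.010, 0.016 and 0.044, and SLC2A1 and ENO1 were not called.

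**Figure D2:**
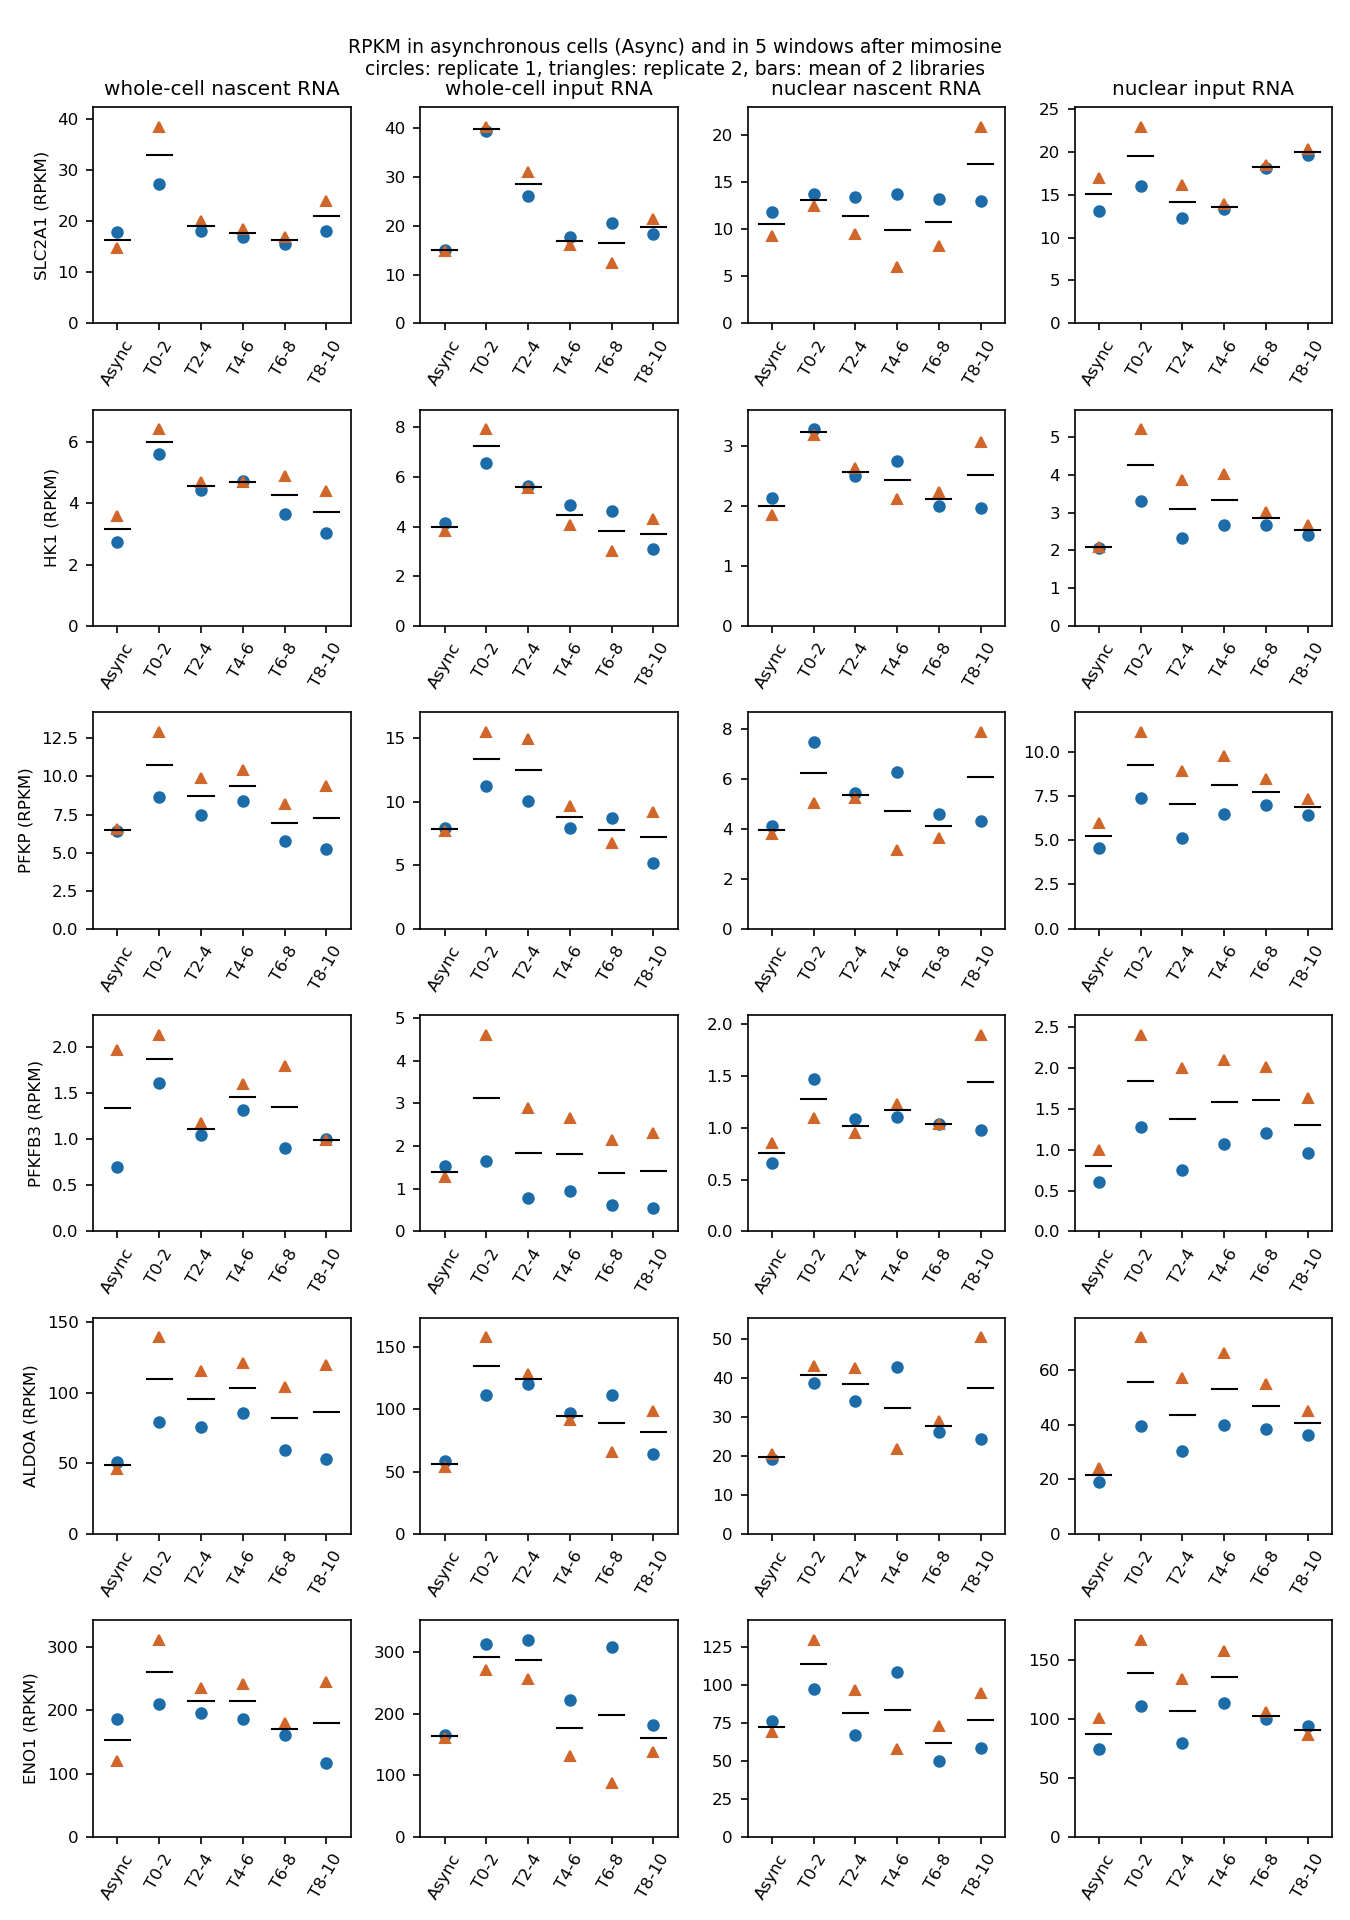
RPKM (vertical axis, linear from 0, own range per panel) of SLC2A1, HK1, PFKP, PFKFB3, ALDOA and ENO1 in asynchronous cells and 5 windows after mimosine, in 4 kinds of RNA; points are single libraries (circles replicate 1, triangles replicate 2) and bars the mean of 2. Most panels peak at T0-2, ALDOA windows lie above the asynchronous libraries in every panel, and T8-10 replicate 2 of nuclear nascent RNA is the highest library for SLC2A1, PFKP, PFKFB3 and ALDOA.

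Within the windows, the means of the members were mostly highest at the start. The window with the highest mean was T0-2 in 36 of the 40 combinations of member and kind of RNA, T4-6 in 1 (PGK1, nuclear input) and T8-10 in 3. These are the same 10 genes seen in 4 kinds of RNA and not 40 separate observations. The share of all genes that were highest at T0-2 was not counted. HK2, the inducible hexokinase, fell the most from T0-2 to T8-10. In nuclear input RNA it was at 1.17 and 1.502 RPKM in asynchronous cells, 4.498 and 5.99 at T0-2, 1.66 and 2.79 at T2-4, 1.204 and 1.41 at T4-6, 0.983 and 1.05 at T6-8 and 0.893 and 1.03 at T8-10. The T0-2 libraries stood apart from all others, and both T8-10 libraries were below both asynchronous ones. The change from T0-2 to T8-10 was -2.17 ± 0.25 (limma adjusted p = 0.014), and HK2 was the only member called lower, against 0.145% of genes; it was also the only one past the test over the 5 windows (limma adjusted p = 0.049; 0.218% of genes). It was not called when any of the 4 libraries of these windows was left out (limma adjusted p 0.098 to 0.16), and the test over the 5 windows lost it in 10 of 12 fits without 1 library (up to 0.35).

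In nuclear nascent RNA HK2 went from 3.71 and 4.28 RPKM at T0-2 to 0.798 and 1.38 at T8-10, -1.70 ± 0.22 (limma adjusted p = 0.030; 0.245% of genes lower). That call was lost in 10 of 12 fits without 1 library, with an adjusted p of up to 0.22. In whole cells HK2 went from 5.82 and 8.09 to 1.28 and 1.37 RPKM in nascent and from 7.58 and 10.98 to 1.23 and 1.67 in input RNA, changes of -2.17 ± 0.32 and -2.48 ± 0.33. Neither was called (limma adjusted p = 0.13 and 0.16), in tables where this contrast called no gene at all, with 767 and 380 genes at an unadjusted p under 0.05. At T8-10 the HK2 mean was 0.59 to 0.91 times the asynchronous mean in the 4 kinds of RNA, after 3.08 to 4.21 times at T0-2.

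PFKFB4 was next in size in nuclear input and both kinds of whole-cell RNA (LDHA was in nuclear nascent RNA, -1.09), at 2.69 and 5.71 RPKM at T0-2 and 1.02 and 1.99 at T8-10 in nuclear input RNA, -1.31 ± 0.51 (adjusted p = 0.34), and at 4.56 and 7.32 against 0.7603 and 2.01 in whole-cell input RNA, -1.997 ± 0.62 (adjusted p = 1.0), by limma. Its T0-2 and T8-10 libraries did not overlap in any of the 4 kinds of RNA. The fitted change of PGK1 over the same span was smaller, -0.30 ± 0.22 in nuclear input RNA (limma 95% interval -0.81 to 0.21), and its T8-10 mean was still 2.70 to 4.85 times the asynchronous mean. LDHA at T8-10 was 1.35 to 2.44 times the asynchronous mean and ALDOA 1.46 to 1.89 times. SLC2A1 was 39.5 and 40.4 RPKM at T0-2 and 18.3 and 21.3 at T8-10 in whole-cell input RNA, but 16.05 and 22.9 against 19.6 and 20.3 in nuclear input RNA, where the windows overlapped. The difference between genes or kinds of RNA in these changes was not tested. The median change of the members was -0.50 in nuclear input, -0.48 in nuclear nascent, -0.62 in whole-cell nascent and -0.96 in whole-cell input RNA, while the median over all genes was 0.12, 0.15, 0.12 and 0.085.

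In a fit blocked on replicate, the change from T0-2 to T8-10 in nuclear input RNA was called for 4 members, against 6.75% of genes: HK2 (limma adjusted p = 2.4e-04), PFKFB4 (0.0040), LDHA (0.013) and HK1 (0.030). Among the windows alone, same-numbered libraries also deviated together in both kinds of whole-cell RNA (10 of 10 pairs each), and a blocked fit of the window libraries, added after the data were seen, called HK2 (0.0038) and PFKFB4 (0.013) in nascent RNA, against 1.05% of genes. In whole-cell input RNA the same fit called HK2 (3.8e-04), PFKFB4 (4.4e-04) and PFKFB3 (0.0041), against 3.8% of genes, where PFKFB3 was 1.64 and 4.61 RPKM at T0-2 and 0.545 and 2.31 at T8-10. In nuclear nascent RNA only 6 of 10 pairs did so, and the T8-10 replicate 2 library was above replicate 1 for 9 of the 10 members.

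**Figure D3:**
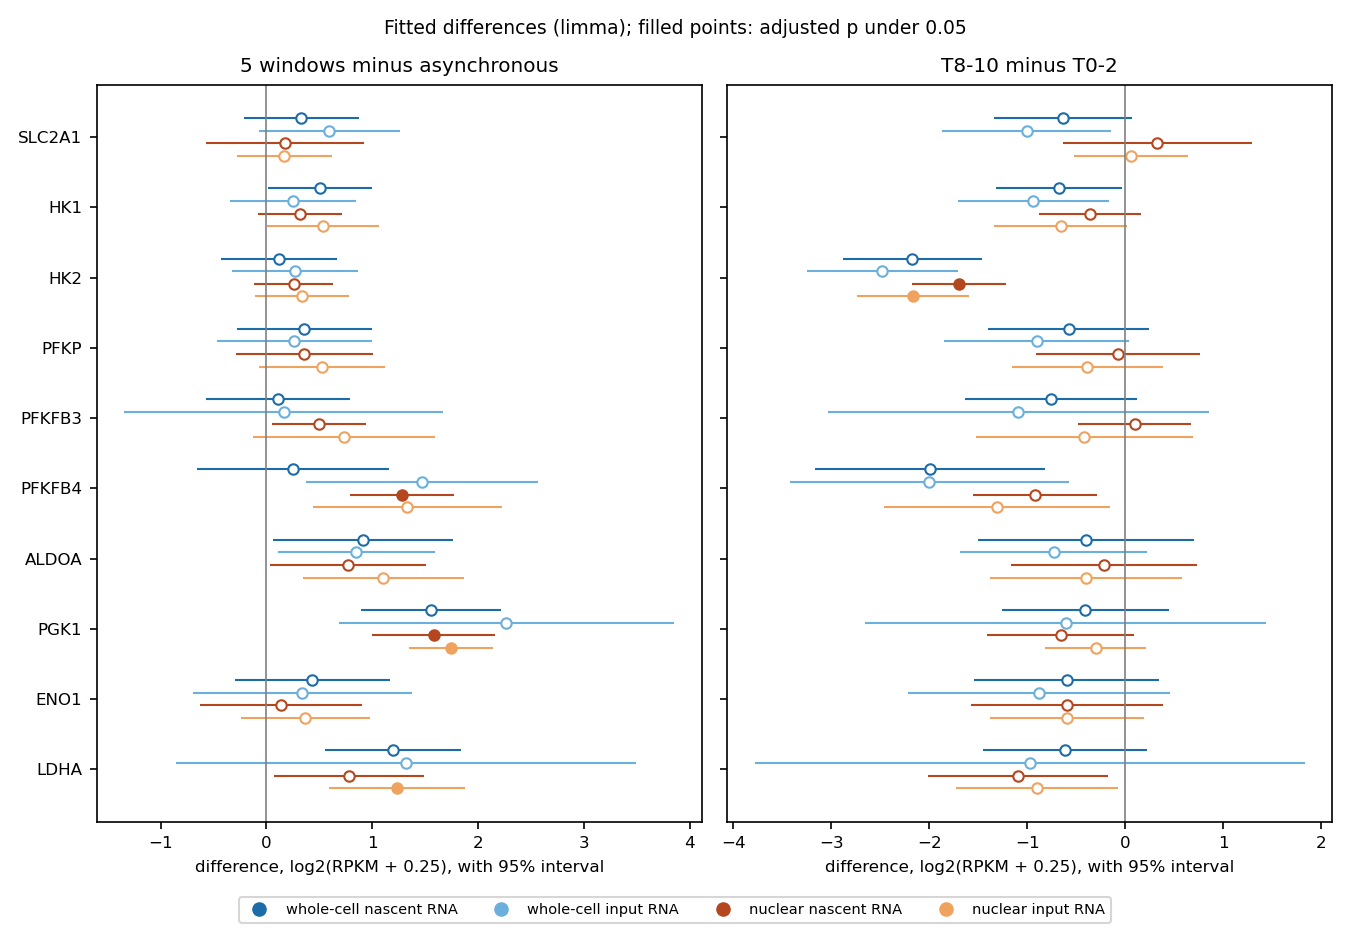
Fitted difference per member on the log2(RPKM + 0.25) scale (horizontal axis) with its 95% interval, for the windows minus asynchronous cells (left) and T8-10 minus T0-2 (right), 1 colour per kind of RNA; filled points have an adjusted p under 0.05 by limma. PGK1, PFKFB4 and LDHA hold the filled points on the left, and HK2 alone on the right.

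The wider pathway, taken as lists chosen with earlier results of these data known, was mixed in direction. Of the other 30 glycolysis genes, 20 were tested in nuclear input RNA, where 2 rose and 1 fell (median 0.34; 1.96% of all genes rose and 2.61% fell), and 19 in nuclear nascent RNA, where 1 rose and 2 fell (median 0.27; 1.95% and 2.54%). ENO2, the neuronal-type enolase and a paralog of ENO1, rose by 1.67 ± 0.39 (adjusted p = 0.048) in nuclear input RNA, from 3.37 and 5.51 RPKM to 21.3 and 36.6 at T0-2. TIGAR, which lowers fructose 2,6-bisphosphate, rose by 0.74 ± 0.12 (adjusted p = 0.014) there. LDHB, the paralog of LDHA that favours pyruvate, had a change of -1.11 ± 0.12 (adjusted p = 0.0049), and PFKM, the muscle-type phosphofructokinase, one of -0.93 ± 0.14 (adjusted p = 0.010) in nuclear nascent RNA, all by limma. No gene of this list was called in whole cells (19 tested in each kind of RNA, medians 0.41 and 0.33). Of 7 pentose phosphate genes, PGD fell in nuclear nascent RNA, -0.80 ± 0.18 (adjusted p = 0.041) by limma, and of 16 tested genes for pyruvate and mitochondrial entry, PDHB, a subunit of pyruvate dehydrogenase, fell in nuclear input RNA, -0.65 ± 0.14 (adjusted p = 0.040).

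Among 12 tested regulators of glycolysis genes, 3 rose in each kind of nuclear RNA and none fell, against 1.96% of genes called higher in input and 1.95% in nascent RNA. TXNIP, which limits glucose uptake and is induced by glucose, rose in nuclear input RNA by 2.24 ± 0.30 (adjusted p = 0.0090) by limma and its libraries ran from 17.9 and 19.4 RPKM in asynchronous cells to 31.4 and 73.8 at T0-2 and 105 and 128 at T8-10. Its paralog ARRDC4 rose by 1.59 ± 0.16 (adjusted p = 0.0044), and EPAS1, which encodes the HIF-2 alpha subunit, by 0.79 ± 0.14 (adjusted p = 0.020). HIF1A RNA differed by -0.12 ± 0.36 (adjusted p = 0.92) and MYC RNA by -0.97 ± 0.25 (adjusted p = 0.070). HIF proteins were not measured. The summed RPKM of 8 hypoxia and iron-chelator markers was above that of asynchronous cells at T0-2 and T8-10. It was 22.02 and 27.4 in the asynchronous nuclear input libraries, 48.7 and 71.9 at T0-2 and 39.00 and 42.9 at T8-10. In whole-cell input RNA it was 30.8 and 31.1, then 132 and 133 at T0-2 and 55.1 and 56.9 at T8-10, and 7 of the 8 markers reached 0.5 RPKM in each table. The summed RPKM of 5 cell cycle markers, CCNE1, CCNE2, CCNB1, PLK1 and CDC20, moved the other way, 30.3 and 36.1 in asynchronous nuclear input libraries against 11.01 and 11.4 at T0-2 and 17.7 and 17.96 at T8-10. Neither sum shows how each of its genes moved. The part of these regulators and markers in the members' changes was not tested.

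The genes most like PGK1 over the 24 group means of the 4 kinds of RNA, among 8492 genes tested in all 4, were C4orf3 (Pearson r = 0.974), FAM162A (0.974), CA9 (0.973), CPA4 (0.965) and IGFBP3 (0.962). CA9 encodes carbonic anhydrase 9, a surface enzyme that handles acid, and is a standard marker of hypoxia. Those most like HK2 were SMOX (0.936), SLCO4A1 (0.934), MAFF (0.928), RAP2A (0.926) and HIVEP2 (0.923). The groups share libraries and the mimosine treatment, so these values describe likeness only. Between members, PGK1 and ALDOA had the highest correlation (0.937) and PGK1 and HK2 the lowest (0.364).

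Control cells transfected with control LNA and taken at points S0 to S6 gave a second course after synchronisation, in libraries separate from the windows. PFKFB4 was at 10.5 and 9.89 RPKM at S0, 4.74 and 5.23 at S2, 2.52 and 1.93 at S4 and 1.22 and 1.92 at S6. HK2 was at 7.33 and 9.95, 6.35 and 7.69, 4.59 and 3.81 and then 2.197 and 2.53 RPKM, and PFKFB3 at 4.900 and 5.502, 3.12 and 2.804, 2.94 and 1.42 and then 1.78 and 1.95. For these 3 genes and LDHA both S6 libraries lay below both S0 libraries, 4 of 10 members against 16.9% of genes. The fitted change from S0 to S6 was -2.55 ± 0.46 for PFKFB4, -1.75 ± 0.45 for HK2 and -1.37 ± 0.34 for PFKFB3. None of these passed (limma adjusted p = 0.059, 0.15 and 0.13), where no gene of 9442 was called lower, 7 were called higher (0.0741%) and 857 had an unadjusted p under 0.05. The same control samples, fitted in the MIAT table with its knockdown libraries, gave 2 members called lower, against 0.472% of genes, and 1 in the table of LUCAT1, against 0.344%.

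The other 6 members overlapped between S0 and S6. PGK1 was at 25.8 and 34.7 RPKM at S0 and 20.01 and 31.2 at S6, ALDOA at 88.4 and 142 against 124 and 127, and ENO1 at 204 and 311 against 272 and 238. Their S0 libraries differed by more than the S6 means did from the S0 means, and the intervals of the changes included 0 (-1.22 to 0.71, -0.64 to 0.97 and -0.79 to 0.82 on the log2 scale by limma). The median change was -0.21 for the members and 0.055 for all genes. TXNIP rose over the same points, by 3.26 ± 0.44 (adjusted p = 0.044) by limma, the only one of 12 tested regulators called. The summed hypoxia and iron-chelator markers were 155 and 213 RPKM at S0 and 90.9 and 101 at S6, and their part in these changes was not tested.

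**Figure D4:**
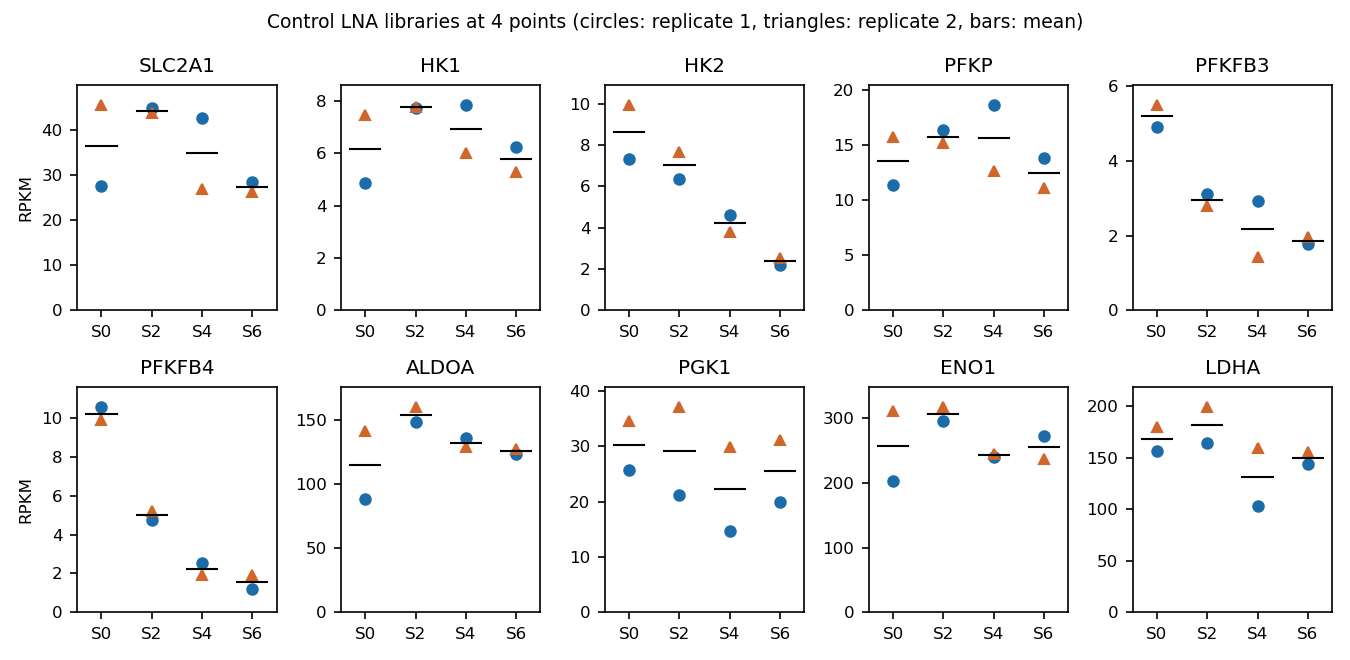
RPKM (vertical axis, linear from 0, own range per panel) of the 10 members in control LNA libraries at points S0, S2, S4 and S6; points are single libraries (circles replicate 1, triangles replicate 2), bars the mean of 2. HK2, PFKFB3 and PFKFB4 are lower at S6 than at S0 in both libraries, LDHA is too by less, and the other 6 panels overlap between S0 and S6.

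The knockdowns were checked first on their targets. LINC00704, named MANCR in the files, was at 1.89 to 4.04 RPKM in control and 0.5502 to 1.61 in knockdown libraries over S0 to S6, and at 1.76 to 1.94 and 0.484 to 0.793 in asynchronous cells. LUCAT1 was at 0.4398 to 0.994 in control and 0.133 to 0.379 RPKM in knockdown libraries (asynchronous 0.469 to 0.495 and 0.124 to 0.311), and MIAT at 0.243 to 0.323 and 0.0718 to 0.221 (asynchronous 0.345 to 0.379 and 0.0561 to 0.152). No knockdown library overlapped its controls. The control samples are the same for the 3 knockdowns, so their results share them. Synchronised effects are the mean over the 4 points of knockdown minus control (8 against 8 libraries), and asynchronous ones compare 3 with 2.

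PFKP and PFKFB3 flank LINC00704 on chromosome 10: in RefSeq on GRCh38.p14, PFKP spans 3067548 to 3136805, LINC00704 4650185 to 4678070 and PFKFB3 6144921 to 6326637, gaps of 1.51 and 1.47 Mb. After LINC00704 knockdown no member was called in synchronised cells, where 0 genes were called higher and 2 lower (0.0212%), with 1559 of 9442 at an unadjusted p under 0.05. PFKP was at 11.4 and 15.8 RPKM in controls and 7.96 and 15.9 in knockdown cells at S0, 16.3 and 15.1 against 9.96 and 15.5 at S2, 18.6 and 12.6 against 12.4 and 10.6 at S4, and 13.8 and 11.1 against 7.33 and 9.57 at S6. The knockdown libraries lay below both controls at S4 and S6 and overlapped them at S0 and S2, and the fitted difference was -0.38 ± 0.18 (95% interval -0.78 to 0.01; limma adjusted p = 0.31). PFKFB3, on the other side, differed by -0.08 ± 0.17 (-0.45 to 0.28). In asynchronous cells PFKP was at 9.195 and 8.85 RPKM in controls and 7.55, 5.88 and 5.601 in knockdown libraries, a difference of -0.50 ± 0.18 (limma adjusted p = 0.34), and the authors' deposited table gives -0.50 with an FDR of 0.19. All 3 knockdown libraries were below both controls for 8 members, but also for 25.2% of all genes, and no gene was called lower, 5 were called higher (0.0557%) and 1115 had an unadjusted p under 0.05.

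After LUCAT1 knockdown 3 members fell in synchronised cells, SLC2A1, HK2 and PFKP, against 8.12% of 9870 genes called lower and 19.0% called higher. PFKP was at 11.4 and 15.7 RPKM in controls and 5.91 and 11.7 in knockdown libraries at S0, 16.3 and 15.1 against 6.89 and 10.5 at S2, 18.6 and 12.6 against 10.3 and 9.62 at S4, and 13.8 and 11.1 against 8.58 and 9.92 at S6. Knockdown was below both controls at S2, S4 and S6, and the difference was -0.64 ± 0.18 (limma adjusted p = 0.022). HK2 changed by -0.60 ± 0.17 (adjusted p = 0.025), from 6.35 and 7.69 to 3.31 and 4.16 RPKM at S2, for example, and SLC2A1 changed by -0.62 ± 0.20 (adjusted p = 0.036), both by limma. One of the knockdown libraries at S0 was the lower one for all 10 members, with PFKFB4 at 2.002 and 10.2 RPKM in the 2. Leaving out 1 of the 16 libraries lost the call of SLC2A1 in 12 fits, of HK2 in 6 and of PFKP in 4, with adjusted p up to 0.088, 0.065 and 0.061. None of the 3 was called without control S0 replicate 2, without control S4 replicate 1 or without the first listed knockdown library at S2. The median of the members was -0.36, while that of all genes was 0.11, so the members lie further below the typical gene than below 0. A difference of the effect among the 4 points was called for no member, nor for any gene, by limma (39 of 9870 at an unadjusted p under 0.05).

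In asynchronous cells no member passed after LUCAT1 knockdown, and the 3 knockdown libraries differed among themselves. The library sizes behind the values lower the knockdown libraries against the controls there, and their part in the differences was not tested. LDHA was at 56.1 and 66.3 RPKM in controls and 36.7, 34.8 and 22.6 in knockdown libraries, -0.99 ± 0.26 (limma adjusted p = 0.13). SLC2A1 was at 26.4 and 24.9 against 21.8, 8.73 and 9.27 RPKM, with knockdown replicate 1 near the controls. All 3 libraries were below both controls for 9 members, against 31.5% of genes. Without knockdown replicate 1, 8 members were called lower, against 29.9% of genes, among them SLC2A1 at -1.48 ± 0.13 (limma adjusted p = 5.0e-04) and PFKP at -1.11 ± 0.14 (0.0015). With it no gene was called lower, 20 were called higher (0.209%), and 2100 of 9550 had an unadjusted p under 0.05. The authors' deposited table, by a test its headers do not name, gives 6 of the 10 members an FDR under 0.05: 2.1e-06 for SLC2A1, 1.7e-06 for PFKFB4, 3.6e-04 for PFKP, 7.1e-04 for LDHA, 7.5e-04 for ALDOA and 0.0027 for ENO1. The same authors' deposited table gives 0.085 for HK1, 0.097 for PGK1, 0.32 for HK2 and 0.37 for PFKFB3.

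After MIAT knockdown 6 members fell in asynchronous cells, HK1, PFKP, PFKFB3, ALDOA, PGK1 and ENO1, where 31.1% of the 9200 genes tested were called lower and the median of all genes was -0.12 (members -0.42). PFKP was at 9.14 and 8.87 RPKM in controls and 5.88, 5.71 and 5.33 in knockdown libraries, -0.65 ± 0.10 (adjusted p = 0.0028), and PFKFB3 at 1.25 and 1.17 against 0.854, 0.668 and 0.682, -0.57 ± 0.11 (adjusted p = 0.0058), by limma. ENO1 went from 122 and 130.3 to 81.7, 93.1 and 87.97 RPKM, -0.53 ± 0.11 (adjusted p = 0.0091), and PGK1 from 7.497 and 7.64 to 5.19, 5.29 and 5.53, -0.48 ± 0.09 (adjusted p = 0.0061). ALDOA changed by -0.53 ± 0.11 (adjusted p = 0.0084) and HK1 by -0.36 ± 0.09 (adjusted p = 0.018). SLC2A1 was at 25.5 and 24.02 against 21.99, 25.5 and 21.2 RPKM, so that its groups overlapped. For 8 members all 3 knockdown libraries lay below both controls, against 44.8% of genes. The library sizes behind the values also lower the knockdown libraries against the controls, and their part alone was not tested. With quantile normalization, which removes a shift shared by most genes, PFKP and PFKFB3 alone kept their calls (limma adjusted p = 0.027 and 0.011; 18.5% of genes lower). Without control replicate 1, 3 of the 6 calls were lost (HK1, PFKFB3 and ALDOA, adjusted p = 0.13, 0.054 and 0.051). Control replicate 2 left out cost HK1 and ENO1 theirs (0.070 and 0.050), and knockdown replicate 2 left out cost HK1 its call (0.055).

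In synchronised cells MIAT knockdown gave no called member (limma; 2.79% of genes called lower and 4.84% higher), and the differences ran from -0.23 ± 0.15 for PFKP to 0.20 ± 0.23 for PFKFB4. PFKP was at 16.3 and 15.1 RPKM in controls and 11.5 and 11.1 in knockdown libraries at S2, and at 13.8 and 11.1 against 13.6 and 12.7 at S6. The 95% interval for PFKP was -0.55 to 0.08, beside a difference of -0.65 ± 0.10 in asynchronous cells, which has its own uncertainty. The difference between the 2 states was not tested, since they lie in tables scaled separately. Of the other glycolysis genes, 10 of 19 fell in asynchronous MIAT knockdown cells and none rose (31.1% of all genes fell and 12.6% rose), among them PFKL, the liver-type phosphofructokinase, at -1.18 ± 0.11 (adjusted p = 6.5e-04) by limma, SLC16A3, a lactate exporter, at -0.95 ± 0.10 (adjusted p = 0.0012) and TPI1 at -0.70 ± 0.11 (adjusted p = 0.0031). After LUCAT1 knockdown in synchronised cells 3 of 20 fell, PFKL, SLC16A3 and PGM1, and 2 rose, SLC2A3 and PFKM, against 8.12% of all genes lower and 19.0% higher. LINC00704 knockdown called none of 19 in either state.

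**Figure D5:**
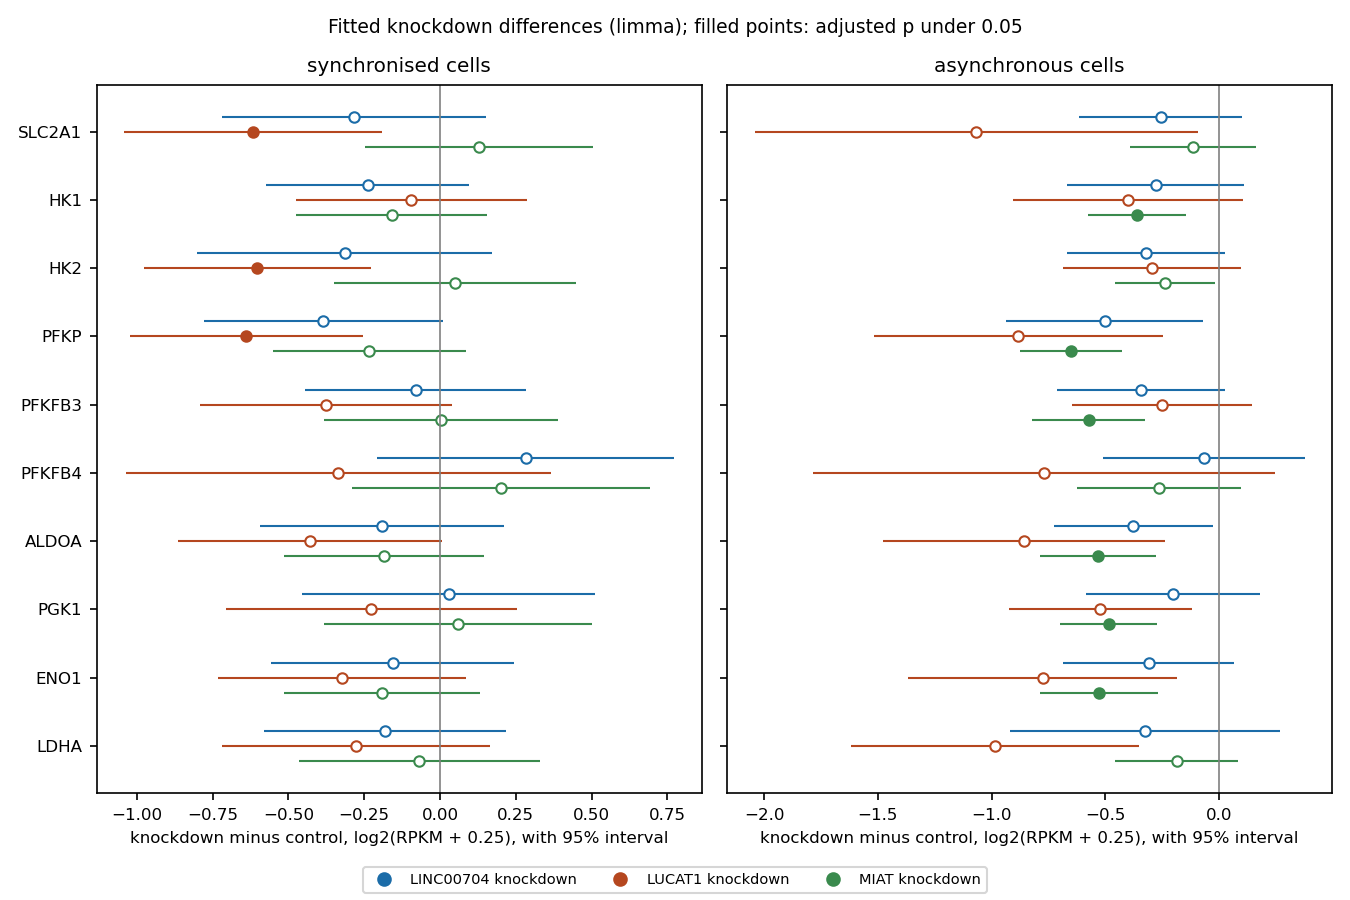
Fitted knockdown minus control per member on the log2(RPKM + 0.25) scale (horizontal axis) with its 95% interval, in synchronised (left, 8 against 8 libraries) and asynchronous cells (right, 3 against 2); filled points have an adjusted p under 0.05 by limma. The filled points are SLC2A1, HK2 and PFKP for LUCAT1 on the left and 6 members for MIAT on the right.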

How the data were processed

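Expression was measured by RNA sequencing, and the authors deposited RPKM per gene in 10 tables. STAR 2.5.3, featureCounts 1.6.1, edgeR, HOMER 4.10.3 and (85 samples) Bowtie2 2.3.4.3 are named per the submitters' processing notes, without their roles, with GRCh38. The length behind the RPKM values was close to the RefSeq gene span for the typical gene (median ratio 1.00 over 14027 genes) but not for PGK1, ALDOA and PFKFB3. Intronic reads may therefore count. The asynchronous knockdown tables also hold the authors' log2 fold changes and the authors' p-values and FDR, by a test left unnamed in the file headers. All columns of per-sample values were matched to samples, by title or, in the synchronised knockdown libraries, by group only.

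Differences were fitted with limma 3.58.1 (R 4.3.3), taking log2(RPKM + 0.25) of genes that reached 0.5 RPKM in 2 or more libraries, with a mean trend and Benjamini-Hochberg adjustment over all genes of a table, called under 0.05. Each test stays within a table, since tables were scaled separately, and fold changes of low genes are understated by the added 0.25. Each member was named in the comparisons, and other genes came from fixed lists. The members and lists were chosen with earlier results of these data known. Likeness was Pearson's r of a gene with a member over group means, with the 5 nearest genes named for PGK1 and HK2. The script was tested on simulated data with independent libraries, which does not cover same-numbered libraries that deviate together. Library depth was read off the steps between low values, and at least 99.9% of the values checked came out whole within 0.05 of a read.

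Replicate numbers pair the libraries of nuclear input RNA (15 of 15 pairs of groups with a correlation of deviations over 0.1). They also did so among the windows alone in whole-cell nascent (10 of 10, 0.289 to 0.594) and whole-cell input RNA (10 of 10, 0.878 to 0.939), a check added after the data were seen. The same control samples serve all 3 knockdowns. Their member values differ by at most 0.0323% between the synchronised tables and by up to 3.70% between the asynchronous ones. Alternatives were another pseudocount, filter, scaling, no trend, a replicate block, and leaving out each library. Python 3.11.15, pandas 2.3.3, numpy 2.4.6 and matplotlib 3.10.9 were used.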

Additional observations from a re-analysis of the deposited data

Results flagged for a closer look

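Each member's difference was compared between kinds of RNA (each window against asynchronous cells, and T8-10 against T0-2) and, for each knockdown, between points and asynchronous cells, 660 pairs in all. In 8 of them, all between knockdown groups, every knockdown library lay above the controls in one group and below them in the other. Such pairs were counted for the members only, without the share over all genes. The 8 therefore cannot be read as particular to these genes. The differences between the groups of a pair were not tested pair by pair. By limma, the test of the knockdown effect among points called no gene for any of the 3 knockdowns (37, 39 and 110 genes at an unadjusted p under 0.05 for LINC00704, LUCAT1 and MIAT). After LUCAT1 knockdown, ENO1, an enolase, differed from control by 0.085 on the log2 scale at S4, but by -0.50 at S2, -0.47 at S6 and -0.78 in asynchronous cells. After LINC00704 knockdown, PFKFB3 differed by 0.11 at S0, and by -0.59 at S2, -0.28 at S6 and -0.34 in asynchronous cells. After MIAT knockdown, PFKFB4 differed by -0.26 at S0 and 0.91 at S6, and the glucose transporter SLC2A1 by -0.18 at S2 and 0.60 at S6. Each point rests on 2 libraries per arm, and asynchronous cells on 2 controls and 3 knockdown libraries.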

How the results depend on the processing

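No called member difference changed sign: of 3030 member differences under the alternatives, 74 changed sign, 53 of them on leaving out 1 library, and none had been called. Counts of called members moved as follows, with the share of all genes called the same way in brackets, and where no cause is named the cause was not tested. For windows against asynchronous cells, nuclear input RNA went from 2 to 1 with median scaling (2.1%) and with a pseudocount of 1 (1.48%), and to 8 with the replicate block (16.4%). Nuclear nascent RNA went from 2 to 4 with quantile normalization (1.26%). In whole cells, 0 became 2 in input RNA with the replicate block (1.04%), and 1 in nascent RNA with the replicate block (1.84%) and without a trend (0.287%). With the asynchronous group included, 10 of 15 pairs in input and 11 of 15 in nascent RNA had a correlation over 0.1. The 10 window pairs were all among these, so replicate numbers mostly do not tie asynchronous libraries to windows there. For T8-10 against T0-2, nuclear input RNA went from 1 to 4 with the replicate block, on all (6.75%) or on window libraries alone (7.75%). Nuclear nascent RNA went from 1 to 2 with quantile normalization (0.593%) and to 0 without a filter (0.029%) or on window libraries alone, with or without the block (0.0724% each). Whole-cell input RNA went from 0 to 1 with the replicate block (0.0509%) and to 3 with it on window libraries alone (3.8%), and whole-cell nascent RNA to 1 (0.0297%) and 2 (1.05%). Among the 5 windows, nuclear input RNA went from 1 to 0 without a filter (0.0595%), with a pseudocount of 0.1 (0.125%), with quantile normalization and on window libraries alone (0% each), and to 3 with either replicate block (13.1% and 15.9%). Nuclear nascent RNA went from 0 to 1 with median scaling (0.0715%), a pseudocount of 1 (0.0511%) or quantile normalization (0.123%), and the block on window libraries alone gave 3 in whole-cell input (3.28%) and 1 in whole-cell nascent RNA (0.292%). For S6 against S0 in control LNA, 0 became 1 in the LUCAT1 table (0.344%), 2 in the MIAT table (0.472%), 2 on control libraries alone (0.449%) and 3 with the replicate block there (1.54%); among the 4 points the last 2 gave 1 (0.645%) and 2 (1.96%). MIAT knockdown in asynchronous cells went from 6 to 2 with quantile normalization (18.5%), and to 5 with the replicate block (26%).

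Leaving out 1 library gave 0 to 2 called members for windows against asynchronous cells in each kind of nuclear RNA. It gave 0 to 1 for T8-10 against T0-2 and among the 5 windows in both kinds of nuclear RNA, and 0 to 2 for S6 against S0 (2 without either LINC00704 knockdown library at S2, against 0.0213% and 0.0212% of genes, and 1 without either at S4, against 0.361% and 0.363%). It gave 0 to 5 for LUCAT1 knockdown in synchronised cells (5 without the second listed knockdown library at S0, against 11.9%, 1 without the second at S4, 0 without the first at S2; 3 without control S0 replicate 1), 0 to 8 for LUCAT1 (8 without knockdown replicate 1, against 29.9%) and 3 to 8 for MIAT knockdown in asynchronous cells (8 without knockdown replicate 1, against 36.8%). The other counts stayed at 0. Where the number was left as a mere label, in nuclear nascent RNA (6 of 10 window pairs), control LNA (5 of 6) and asynchronous knockdowns (1 pair each), the block is given only here. For the knockdowns in synchronised cells no replicate block was fitted. No paired analysis was possible because the replicate numbers of their knockdown columns match the sample titles in some groups only, so all were mapped by group. The smallest member value rests on 166 reads, and the part of depth in the calls was not tested.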
